A study of Homo sapiens with 6 samples.

Results

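The cytosolic ribosomal protein genes, which code for the proteins of the ribosome outside mitochondria, were selected by symbol from the count tables of an RNA-seq experiment. Symbols of the RPL, RPLP and RPS families, the paralogs RPL7L1, RPL22L1, RPL26L1, RPL36AL, RPL39L, RPL3L, RPL10L and RPS27L, and RPSA and FAU gave 85 members of 47470 listed genes. They comprise 43 genes of the large subunit, 31 of the small subunit, 3 of the P-stalk and 8 paralogs. The symbol rule does not match RPS4X, a small-subunit gene on chromosome X, so the small-subunit set is not complete. The RNA came from 1 established line, HEK293T, of human embryonic kidney origin, which expresses SV40 large T antigen and is labelled wild type in both groups. Cells of one group were left untreated and cells of the other received valproic acid (VPA), which inhibits histone deacetylases, at 1 mM for 1 day. Each group had 3 libraries, and nothing in the labels says that these came from separate cultures, so p-values measure only the spread between these samples.

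Each ribosome holds these proteins in fixed proportions, and cells make them from some of the most abundant mRNAs of a dividing cell. Most ribosomal protein mRNAs start with a C followed by a run of C and T (U in the mRNA), the 5′ terminal oligopyrimidine or TOP motif, through which mTOR signalling and the binding protein LARP1 control their translation. Several genes have paralogs that can take their place in the ribosome, and many have processed pseudogenes, so a part of their reads has more than 1 place in the genome.

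Counts on genes were between 18622267 and 18828495 per library, and all 9 genes chosen as markers of the line had at least 10 counts in every library. Of 11 marker genes of other tissues, 7 had under 10 counts in every library, the fibroblast gene COL1A2 among them. The fibroblast genes COL1A1 and LUM were counted in all 6 and had more counts in each VPA-treated library than in any untreated one. DCN, also a fibroblast gene, had 0, 0 and 3 counts in the untreated and 40, 47 and 46 in the VPA-treated libraries. The blood gene CD14 had 4, 11 and 9 against 8, 12 and 2. The edgeR quasi-likelihood test covered 15298 genes after its filter on low counts, 80 members among them. RPL10, RPL36A and RPL39 were not tested because they lie on chromosome X, whose 1437 listed genes are all at 0 in every library, so these zeros say nothing about their expression. RPL3L, the paralog of RPL3 known from muscle, had 3 counts in the untreated and 17 in the VPA-treated libraries, and RPL10L, known from testis, had 7 counts over all 6 libraries. Neither of the latter passed the filter.

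VPA-treated cells had a lower level of nearly all tested ribosomal protein mRNAs, relative to the other RNAs of the library, by a small and even amount. Normalized counts are the counts scaled by TMM, a normalization that sets the bulk of genes to no change, and brought to the size of the mean library. On this scale 74 of the 80 tested members were lower and 0 were higher at an adjusted p under 0.05 by edgeR's quasi-likelihood test with Benjamini-Hochberg adjustment. The share of lower members was 92.5%, where 30.0% of all tested genes were lower and 32.9% were higher. Most members have many counts, and of genes outside the family of like mean count 78.9% were lower on average. At an unadjusted p under 0.05 the counts were the same 74 and 0. DESeq2, fitted without edgeR's filter and so with RPL3L and RPL10L included, called 72 members lower and 0 higher at an adjusted p under 0.05. The share of all genes that DESeq2 called is not given here. The median member had a log2 fold change of -0.26, a level that dropped by 16.5%. Every VPA-treated library lay below every untreated library for 68 members, which is 85% of those tested against 31.0% of all tested genes. The share without overlap among genes of like mean count is not given here.

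None of the changes was large. By edgeR, 0 members passed the study's threshold of a log2 fold change of 1 in size together with an adjusted p under 0.05, and at an unadjusted p the count was also 0. Of all tested genes, 12.0% passed it upward and 0.503% downward. DESeq2 likewise put 0 members past it at the adjusted p and 1, RPL3L, at the unadjusted p. The members' log2 fold changes ran from -0.62 for RPL17 to 0.0058 for RPL36AL, with quartiles of -0.31 and -0.22. Their SD was 0.093, against 0.77 over the tested genes outside the family. By class, 38 of 40 tested genes of the large subunit were lower, with a median log2 fold change of -0.28, and 30 of 31 of the small subunit, with a median of -0.26. All 3 genes of the P-stalk were lower, with a median of -0.19, and 3 of 6 tested paralogs, with a median of -0.15. The size of these changes rests on the scaling. Scaling by library totals alone shifted the median of all genes to 0.14, put the median member at -0.13 and left 45 members lower and 1, RPL36AL, higher. The share of all tested genes lower or higher on that scale is not given here, so counts with library totals stand without it. A smaller amount of total RNA per cell and fewer cells cannot be told apart from counts of this kind, and neither was measured.

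**Figure D1:**
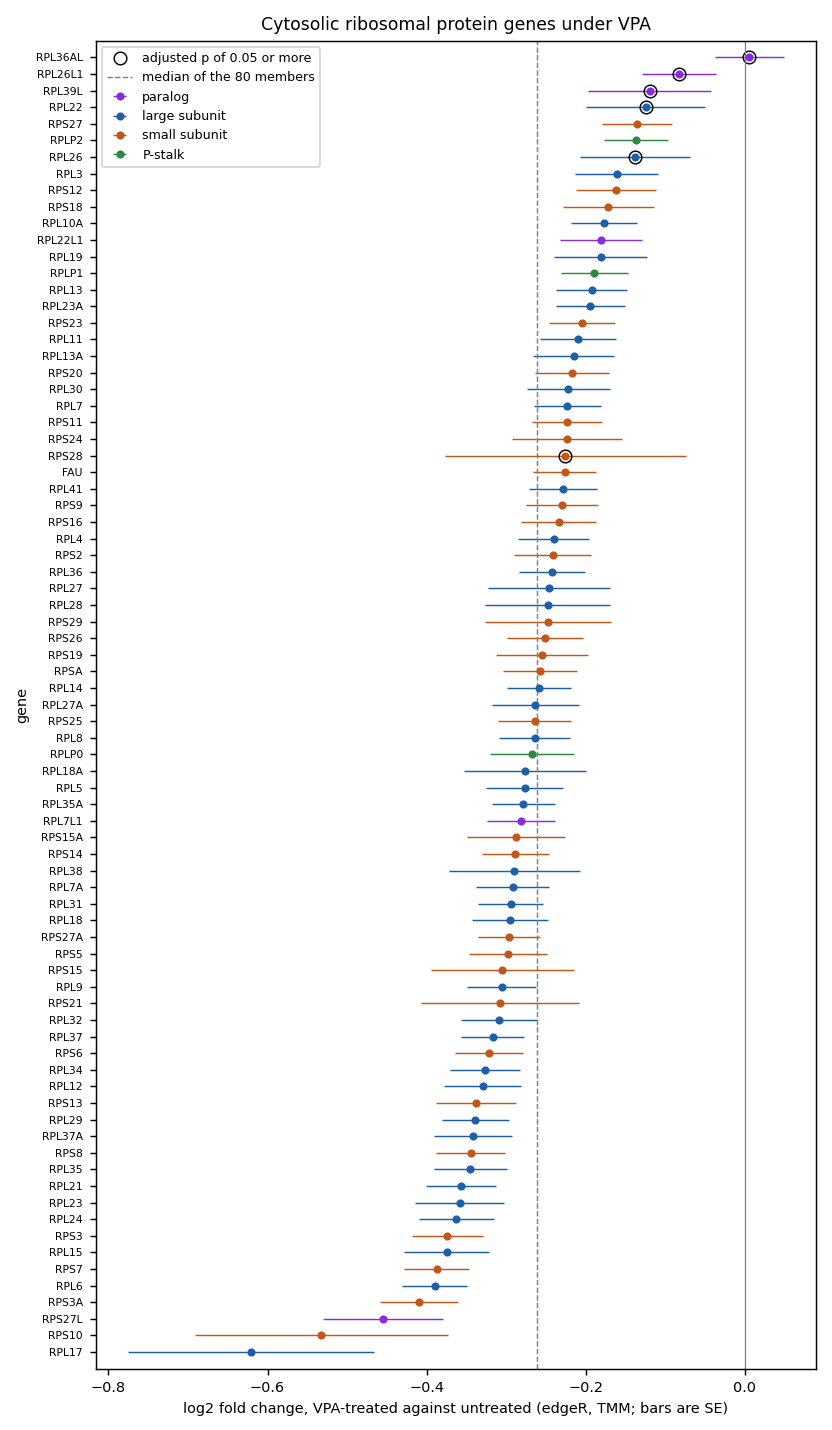
Log2 fold change of VPA-treated against untreated cells for 79 of the 80 tested members (points, edgeR with TMM) with its standard error (bars), sorted and coloured by class, with the median of all 80 as a dashed line. All points but that of RPL36AL lie left of 0 on this scale, and the 6 circled members did not pass the test; with library totals as the scaling 4 members lie right of 0.

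The share of all counts that fell on the 85 genes was 7.36%, 7.50% and 7.51% without treatment, compared with 6.81%, 6.83% and 6.78% after VPA. The groups did not overlap, and the means were 7.46% ± 0.086 and 6.81% ± 0.028 (SD, n = 3 libraries each). Large-subunit and P-stalk genes with their paralogs made up 4.54% ± 0.059 before and 4.15% ± 0.026 after treatment. Small-subunit genes with RPS27L made up 2.92% ± 0.028 and 2.66% ± 0.015. The share needs no normalization between libraries, but it falls when any other RNA takes more of the library. Reads that fitted more than 1 gene made up 2.10% of those listed in each untreated library and 1.97% to 1.999% in the VPA-treated libraries. Reads with more than 1 place in the genome made up 2.89% to 2.92% and 2.81% to 2.85%. The part of these reads in the members' change was not tested. The 31 listed pseudogenes of the family held 0.00736% to 0.00863% of the counts.

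**Figure D2:**
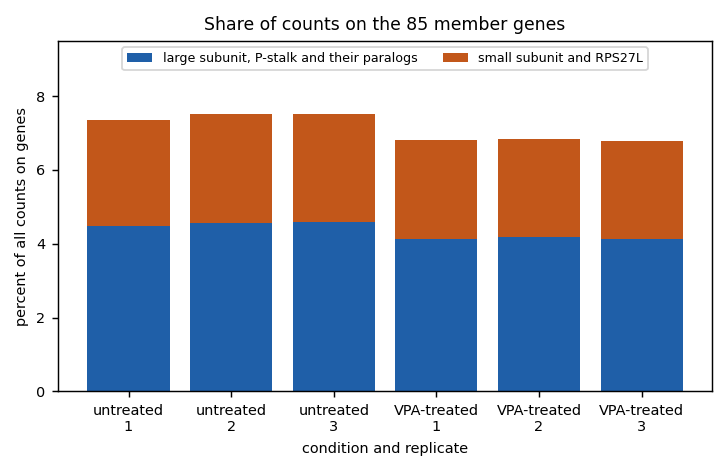
Percent of all counts on genes that fell on the 85 member genes in each library (bars), split into the large-subunit group and the small-subunit group. The 3 untreated libraries stand between 7.36% and 7.51% and the 3 VPA-treated libraries between 6.78% and 6.83%.

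The most counted members moved close to the median. RPS2, a protein near the mRNA entry of the small subunit, had normalized counts of 97235, 99536 and 98189 in the untreated and 88044, 79663 and 81756 in the VPA-treated libraries. It was lower with a log2 fold change of -0.24 ± 0.048 (SE) at an adjusted p of 0.000177 by edgeR. RPL4, which lines the exit tunnel of the large subunit, had 48753, 51528 and 52918 against 42791, 43042 and 43862. Its log2 fold change was -0.24 ± 0.045 (edgeR adjusted p = 8.38e-05), and for both genes every VPA-treated library lay below every untreated one.

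Among the large-subunit genes, RPL5 and RPL11, which bind 5S rRNA and can bind MDM2 when assembly fails, were lower with log2 fold changes of -0.28 ± 0.049 and -0.21 ± 0.048. RPL5 had normalized counts of 26023, 28768 and 29063 in untreated and 21856, 23962 and 23391 in VPA-treated cells. RPL11 had 14028, 14869 and 16021 against 12366, 13163 and 13319. The groups did not overlap for either gene. RPL6 had 29473, 30384 and 30021 normalized counts against 22985, 22950.1 and 22664, the largest change among the well counted genes of this subunit, with a log2 fold change of -0.39 ± 0.041 (edgeR adjusted p = 3.66e-08). RPL15 followed at -0.37 ± 0.053, while RPL3, which reaches into the peptidyl transferase centre, was at -0.16 ± 0.052. RPL3 had 44548, 50365 and 52346 normalized counts against 43475, 43990.0 and 44225, so that its lowest untreated library lay only just above the highest treated one. Without untreated replicate 3 its log2 fold change was -0.12 and the edgeR adjusted p was 0.0626.

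Among the small-subunit genes, RPS3A changed most of those with at least 100 normalized counts. It had 16534, 19116 and 18341 normalized counts before and 12993, 13919 and 13742 after treatment, giving a log2 fold change of -0.41 ± 0.049 (edgeR adjusted p = 2.86e-07). RPS7 had 14818, 15300.3 and 15660.1 against 11493, 11969 and 11544, with a log2 fold change of -0.39 ± 0.041. RPS3, which sits at the mRNA entry, was at -0.37 ± 0.044. No untreated library overlapped a treated one for these 3 genes. RPS6, the target of S6 kinase, was lower by less, with 32493, 34326 and 34127 normalized counts against 26592, 26799 and 27381 and a log2 fold change of -0.32 ± 0.043. RPS19 and RPS26, both mutated in Diamond-Blackfan anaemia, had log2 fold changes of -0.25 ± 0.058 and -0.25 ± 0.047. RPS27, which binds a zinc ion, was at -0.14 ± 0.044, and its edgeR adjusted p of 0.00997 rose to 0.0758 without untreated replicate 2 and to 0.0526 without VPA-treated replicate 2.

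The members that serve other roles as well were close to the rest. RPSA, also known as the laminin receptor precursor, had a log2 fold change of -0.26 ± 0.046. FAU and RPS27A, which are made as fusions with a ubiquitin-like protein and with ubiquitin, were at -0.23 ± 0.039 and -0.30 ± 0.039. The exons of FAU share 17.2% of their bases with SYVN1 on the same strand in GENCODE 44. All 3 genes were lower without overlap between the groups. In the P-stalk, which recruits translation factors to the ribosome, RPLP0 was at -0.27 ± 0.053, RPLP1 at -0.19 ± 0.042 and RPLP2 at -0.14 ± 0.040. RPLP0 had 49390.0, 55339.6 and 57996 normalized counts against 44496, 43968 and 46735, and RPLP2 had 8495, 8464 and 8905 against 7878, 7645 and 7997.

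RPL17 and RPS10 stood apart by their level. RPS10 was named after its values had been seen. The same holds for the genes named below for their level or their failure to pass a test, which are RPS28, RPL41, RPL38, EIF3H and RPTOR. Per kilobase of coding length, the 74 tested members other than the paralogs had a median of 36954.5 normalized counts in untreated cells, with quartiles of 24373.8 and 45057.4. RPL41 and RPS2 were highest, at 199385 and 111855 normalized counts per kilobase. RPL17 had 202 and RPS10 had 218. In GENCODE 44 the read-through gene RPL17-C18orf32 covers 96.9% of the exon bases of RPL17 and RPS10-NUDT3 covers 84.0% of those of RPS10, both on the same strand, and both read-through genes are listed at 0 in all libraries. Whether reads that fit both genes were set aside, as is the default of the counting tool, is not given in the sources used here, so the counts of this pair are uncertain. RPL17 had normalized counts of 113, 87.9 and 134 before and 82.4, 59.7 and 75.6 after treatment, giving a log2 fold change of -0.62 ± 0.15 (edgeR adjusted p = 0.00153). RPS10 had 118, 87.9 and 118 against 95.8, 63.6 and 64.1, with overlap between the groups, a log2 fold change of -0.53 ± 0.16 and an edgeR adjusted p of 0.00644.

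Of the 6 tested members that did not pass, 3 were paralogs and 3 were parent or single genes. RPS28 had 6690.1, 5167 and 4549 normalized counts in the untreated and 4969.6, 4767 and 4294 in the VPA-treated libraries. Its log2 fold change of -0.23 was close to the median, but the standard error was 0.15 and the edgeR adjusted p was 0.248. RPL26 was at -0.14 ± 0.069 (edgeR adjusted p = 0.0995) and RPL22 at -0.12 ± 0.075 (edgeR adjusted p = 0.172). Both values moved with single libraries. Without untreated replicate 1 they were -0.22 for RPL26 and -0.21 for RPL22 and passed (edgeR adjusted p = 0.000205 and 0.00116), and without untreated replicate 3 they were -0.075 and -0.048. RPL22 also passed without VPA-treated replicate 3 (edgeR adjusted p = 0.0437), and without VPA-treated replicate 1 the values were -0.083 for RPL26 and -0.081 for RPL22. With the replicate number as a block, RPL26 and RPL22 passed at edgeR adjusted p-values of 7.11e-05 and 0.000265 and RPL26L1 at 0.0414, while RPL38 no longer did, at 0.118. On the opposite strand MGC16275 covers 59.0% of the exon bases of RPL38.

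The start of transcription was compared between the members, since the TOP motif begins at the first base of the mRNA. Each line below gives, in genomic DNA of the coding strand from RefSeq on GRCh38.p14, 25 bases before and 15 bases from the annotated start. A start was called TOP-like where its first base was C and at least 4 bases, each C or T, followed. The capitals mark that run, and sequences without capitals do not have one at the annotated start. Shown are members of the small subunit and the stalk, then parents and paralogs named later. RPL6, RPL3, RPL15, RPL10A and RPL7L1, whose sequences are not shown, had no TOP-like start.
RPS6 at chr9:19380222-19380261, minus strand: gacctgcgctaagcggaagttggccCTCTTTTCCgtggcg
RPS3 at chr11:75399493-75399532, plus strand: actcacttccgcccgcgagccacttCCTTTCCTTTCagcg
RPS3A at chr4:151099603-151099642, plus strand: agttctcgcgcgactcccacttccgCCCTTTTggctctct
RPLP2 at chr11:809942-809981, plus strand: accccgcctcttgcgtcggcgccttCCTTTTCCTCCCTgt
RPS7 at chr2:3575235-3575274, plus strand: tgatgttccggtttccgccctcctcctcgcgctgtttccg
RPS27 at chr1:153990737-153990776, plus strand: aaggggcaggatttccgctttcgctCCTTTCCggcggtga
RPS27L at chr15:63157463-63157502, minus strand: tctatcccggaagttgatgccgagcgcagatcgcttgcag
RPL22 at chr1:6199581-6199620, minus strand: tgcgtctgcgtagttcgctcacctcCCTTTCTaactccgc
RPL22L1 at chr3:170870181-170870220, minus strand: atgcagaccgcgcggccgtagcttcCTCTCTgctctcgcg
RPL26 at chr17:8383179-8383218, minus strand: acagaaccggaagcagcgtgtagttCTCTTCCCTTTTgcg
RPL26L1 at chr5:172958704-172958743, plus strand, the first of 2 listed starts: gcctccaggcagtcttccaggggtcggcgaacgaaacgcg
RPL36AL at chr14:49620612-49620651, minus strand: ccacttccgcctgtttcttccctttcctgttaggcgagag

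Of the 68 members with a start in the RefSeq promoter table, 48 had a TOP-like start, which is 70.6%. The share was 6.78% over the tested genes outside the family and 5.14% over all 27305 symbols of the table. Among the 6 paralogs with an entry, 1 had such a start, RPL22L1. The change with VPA was alike on both sides of this split. The 45 tested members with a TOP-like start had a median log2 fold change of -0.26 and 43 of them were lower, while the 19 without one had a median of -0.25 and 16 were lower. An annotated start can lie some bases off the start used by these cells, and the start used was not measured here. CCGGAAG, a motif bound by ETS factors, was found on either strand in the 300-base promoter of 33.8% of the members, 21.0% of the tested genes outside the family, 12.2% of all symbols and 43.5% of the mitochondrial ribosomal protein genes. TATAAA was found in 10.3% of the members, 8.44% of the tested genes outside the family and 14.0% of all symbols, so that its share in the members lay between those of the other sets.

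The members were next compared with genes of like mean count, because the direction of the VPA response depended on the count level. Outside the family, 88.6% of the 166 genes averaging 10000 normalized counts or more were lower, with a median log2 fold change of -0.29. Of the 53 members in this class 52 were lower, with a median of -0.26. Between 4000 and 10000 normalized counts 73.4% of 623 other genes were lower, with a median of -0.21, and 16 of 18 members, with a median of -0.28. At lower counts the other genes shifted upward, to a median of -0.13 between 1000 and 4000 normalized counts, 0.050 between 100 and 1000 and 0.38 below 100. The members in the top class were less spread than the other genes there, with an SD of log2 fold changes of 0.068 against 0.18.

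Set against the genes outside the family within a factor of 2 of its own mean count, a member was as often below as above them. Their median was undercut by 43 members and exceeded by 37, and the median difference was -0.015 on the log2 scale. The log2 fold changes of 76 members lay between the 10th and the 90th percentile of these genes. RPL17, RPS10 and RPS27L lay under that range, with 2.51%, 3.99% and 4.30% of the genes of like count below them, and RPL3 lay over it, with 93.9% below it. The lower level of the family was of the size seen in other genes with many counts.

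**Figure D3:**
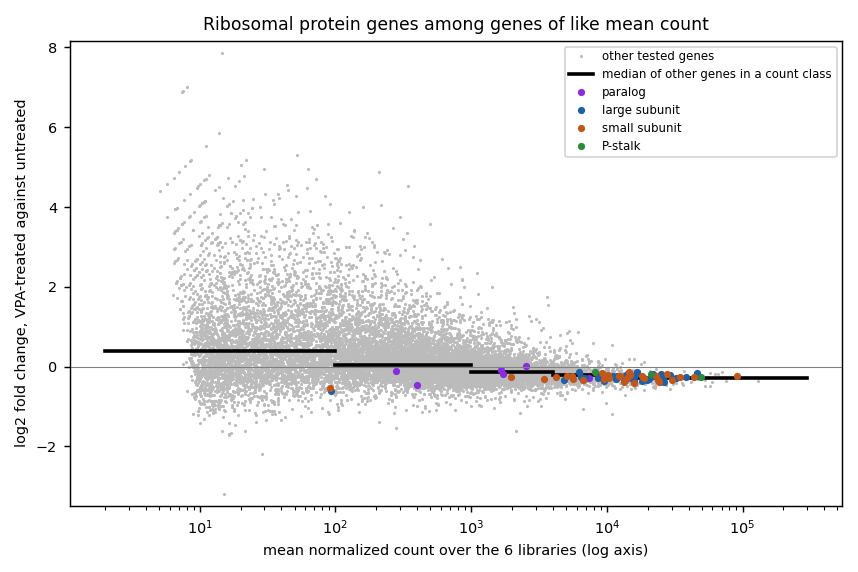
Log2 fold change of VPA-treated against untreated cells (edgeR with TMM) against the mean normalized count over the 6 libraries (log axis) for the members (coloured by class) and all other tested genes (grey), with the median of the other genes in 5 count classes (black lines). The black lines step down from 0.38 below 100 normalized counts to -0.29 from 10000 upward, and most members lie around the 2 lowest of them.

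Each member was also tested against the family itself, with the libraries scaled so that the median member does not change. On this scale a log2 fold change of 0 is the change of the median member. At an adjusted p under 0.05 by edgeR's quasi-likelihood test, 5 members were below it (6.25%) and 6 above (7.5%). Of all tested genes 5.77% were below, close to the share of the members, and 59.7% were above. With the replicate number as a block the counts were 16 below and 16 above, and the share of all tested genes is not given for that fit. Among the named members the block put RPL15 below (edgeR adjusted p = 0.000462). It put RPL22, RPL26, RPLP1 and RPL22L1 above (edgeR adjusted p = 5.49e-06, 1.54e-05, 0.0121 and 0.0446). These genes did not pass without it. In the fit without the block RPL36AL was farthest above, at 0.27 ± 0.045 (edgeR adjusted p = 2.37e-05). RPL26L1 followed at 0.18 ± 0.047, RPS27 at 0.13 ± 0.040 and RPLP2 at 0.13 ± 0.039. RPL3, at 0.11 ± 0.046, and RPL10A, at 0.089 ± 0.038, passed by little, with edgeR adjusted p-values of 0.049995 and 0.0444. Among the members that passed, RPS27L was farthest below, at -0.19 ± 0.078, then RPS3A at -0.14 ± 0.045, RPL6 at -0.12 ± 0.036, RPS7 at -0.12 ± 0.037 and RPS3 at -0.11 ± 0.043. RPL17 and RPS10 lay farther below, at -0.35 ± 0.16 and -0.27 ± 0.16, but did not pass (edgeR adjusted p = 0.0584 and 0.163), and with the replicate block RPL17 passed (edgeR adjusted p = 0.0103). The calls of RPL36AL, RPL26L1, RPS27, RPL6 and RPS7 held under all 11 alternatives run for this comparison, each library left out in turn included. RPLP2 lost its call without VPA-treated replicate 3 (edgeR adjusted p = 0.0542) and RPS3A without untreated replicate 2 (edgeR adjusted p = 0.103). RPS3 kept its call in 7 of the 11, RPL10A and RPS27L in 5 each and RPL3 in 3. RPL10A lost it whichever library was left out, with a log2 fold change against the family that stayed between 0.071 and 0.11. The value of RPL3 fell to 0.052 without untreated replicate 1 and that of RPS27L moved to -0.11 without VPA-treated replicate 1, so that these values rested in part on 1 library. Without untreated replicate 1 the count above the family was 12, and without untreated replicate 3 the count below it was 8.

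The paralogs can be read against their parents within each library, where the scaling has no part. RPS27L, known as a target of p53, whose protein large T antigen binds in this line, had 457, 456 and 478 normalized counts in the untreated and 299, 345 and 371 in the VPA-treated libraries. Its parent RPS27 had 14653, 16098 and 15062 against 14304, 13664 and 13733. RPS27L made up 2.76% to 3.07% of the pair in untreated and 2.05% to 2.63% in VPA-treated cells, without overlap. The log2 ratio of treated minus untreated libraries differed by -0.33, with an exact two-sided permutation p of 0.1, the smallest that 3 against 3 libraries allow, and 0.4 after adjustment over the 4 pairs compared.

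The other pairs overlapped between the groups. RPL7L1, which takes part in assembly of the large subunit, had a log2 ratio to RPL7 that differed by -0.058 (exact permutation p = 0.2). RPL22L1, with 1788, 1858 and 1855 normalized counts against 1568, 1763 and 1521, had a log2 ratio to RPL22 that differed by -0.063 (exact permutation p = 0.6). The ratio of RPL26L1 to RPL26 differed by 0.052 (exact permutation p = 0.6). Of the paralogs whose parents lie on chromosome X, RPL36AL had 2561, 2464 and 2578 normalized counts in the untreated and 2428, 2586 and 2619.5 in the VPA-treated libraries. Its log2 fold change was 0.0058 ± 0.043 (edgeR adjusted p = 0.918) on the TMM scale and 0.14 with library totals, where it passed the test (edgeR adjusted p = 0.00958). RPL39L had 291, 274 and 308 against 269, 275 and 259 and a log2 fold change of -0.12 ± 0.078 (edgeR adjusted p = 0.187).

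**Figure D4:**
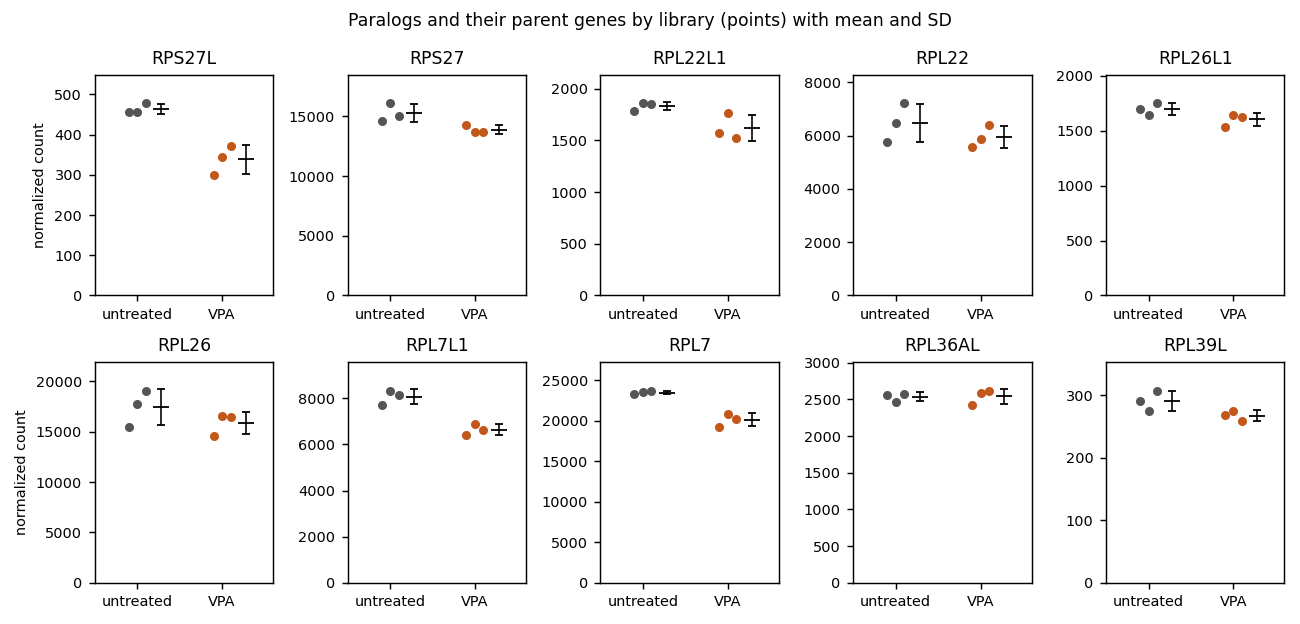
Normalized counts (TMM, linear axes from 0) of 6 paralogs and 4 parent genes in each untreated and VPA-treated library (points), with the mean and SD of the 3 libraries. RPS27L falls from 456 to 478 in untreated to 299 to 371 in VPA-treated cells without overlap, while RPL36AL stays between 2428 and 2619.5 in all libraries.

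Replicates 1 and 3 differed in a way that recurred in both groups. The log2 difference between replicates 1 and 3 was computed for each member in untreated and in VPA-treated cells. Across the 80 members the values had a Pearson r of 0.66 and a Spearman rho of 0.69, and across the 11065 genes averaging 100 counts or more the r was 0.42. These points share the same 4 libraries and are not independent, so no p is given. RPS28 was 0.56 higher in replicate 1 than in replicate 3 of the untreated and 0.21 higher in that of the treated libraries, on the log2 scale. RPL22 differed by -0.32 and -0.20. For these genes the difference between the untreated replicates was larger in size than the log2 fold change of -0.26 of the median member with VPA, and that between the treated replicates was smaller. The replicate difference in untreated cells had an r of -0.043 with the log2 fold change under VPA. Deviations from the group means were also correlated between same-numbered libraries, over the members averaging 100 counts or more. The correlations were 0.62 for replicate 1, -0.020 for replicate 2 and 0.77 for replicate 3, so replicate 2 showed no such recurrence.

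**Figure D5:**
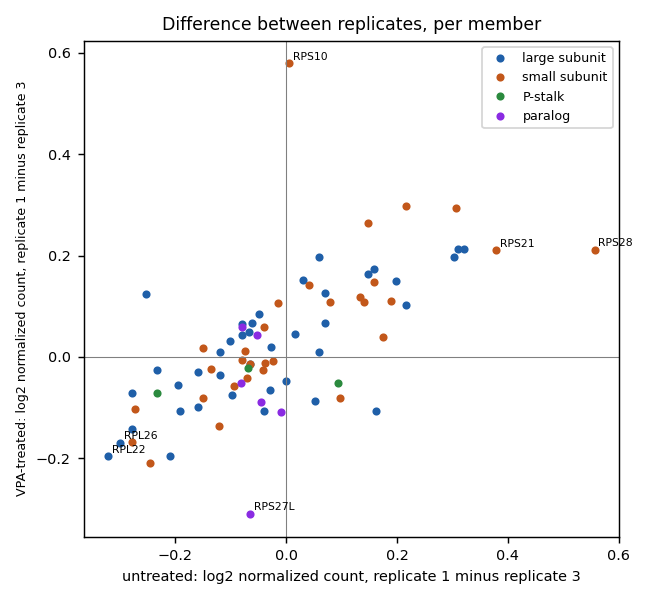
Log2 difference in normalized count between replicate 1 and replicate 3 for each of the 80 tested members, in untreated (horizontal) and VPA-treated (vertical) libraries. The points rise together (r = 0.66), with RPS28 at 0.56 and 0.21 and RPL22 at -0.32 and -0.20, and RPS10 stands off them at 0.0055 and 0.58.

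Genes of 5 other lists of the translation apparatus were set beside the 30.0% of all tested genes that were lower on the TMM scale, and beside genes of like mean count. For the latter, the share of lower genes outside the family and the list, within a factor of 2 of the mean count, was averaged over the genes of a list, which gave 78.9% for the cytosolic members themselves. In the 5 lists 0 genes were higher by edgeR at the adjusted or the unadjusted p, and 0 by DESeq2, but with library totals as the scaling up to 4 genes of a list were higher. Of the 16 TOP mRNAs outside the family, which code mainly for translation factors, 15 were lower, which is 93.8% against 84.0% at like count, with a median log2 fold change of -0.29. The elongation factor subunits EEF1B2 and EEF1D were at -0.48 ± 0.045 and -0.37 ± 0.040, and RACK1, a scaffold on the small subunit, was at -0.33 ± 0.043. EIF3H was at -0.072 ± 0.054 and did not pass (edgeR adjusted p = 0.263), but passed with the replicate block (edgeR adjusted p = 0.0460), which put all 16 lower. Of 48 tested ribosome assembly factors 43 were lower, 89.6% against 57.6% at like count, with a median of -0.32. NOP2, an rRNA methyltransferase, was at -0.53 ± 0.039, RRP12 at -0.50 ± 0.042 and NOP14 at -0.48 ± 0.041.

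Of the 14 genes of RNA polymerase I and its factors, which transcribe ribosomal RNA, 12 were lower, 85.7% against 46.6% at like count, with a median log2 fold change of -0.28. UBTF, the factor that binds rDNA, had 5440.5, 5369.8 and 5726 normalized counts before and 3600.2, 3535 and 3604 after treatment, giving a log2 fold change of -0.62 ± 0.040 (edgeR adjusted p = 1.37e-11). The subunits POLR1G and POLR1C were at -0.56 ± 0.046 and -0.41 ± 0.044. Of 12 regulators of TOP mRNAs 7 were lower, with a median of -0.14. Their share of 58.3% was close to the 56.6% of genes of like count, and with library totals 2 were lower and 1 was higher. TSC2, a brake on mTOR, was at -0.43 ± 0.043, LARP1 at -0.23 ± 0.039 and MYC, which drives ribosome production, at -0.17 ± 0.042. MTOR's partner RPTOR was at -0.040 ± 0.043 and did not pass.

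Of 77 tested mitochondrial ribosomal protein genes 58 were lower, 75.3% against 45.2% at like count, with a median log2 fold change of -0.25. With library totals 35 were lower and 4 higher. A TOP-like start was found in 8.70% of those with an entry. MRPL15, MRPS7 and MRPL9 were at -0.54 ± 0.053, -0.52 ± 0.043 and -0.40 ± 0.042. Set against the median cytosolic member, 9 mitochondrial genes were below and 23 above (11.7% and 29.9%) at an adjusted p under 0.05 by edgeR. On that scale 5.77% of all tested genes were below and 59.7% above. Assembly factors had 16 below and 7 above, and RNA polymerase I genes had 4 below and 2 above. Of the TOP mRNAs 2 were below and 2 above, and of the regulators 1 was below and 7 were above. With the replicate block on the TMM scale, 45 assembly factors, 13 RNA polymerase I genes, 7 regulators and 62 mitochondrial genes were lower, beside 5100 of all 15298 tested genes.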

How the data were processed

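Total RNA was extracted, and the RNA-seq libraries were made from it by a strand-specific mRNA protocol. Read cleaning (SOAPnuke), alignment to hg38 and counting per gene were done by the authors, who deposited the raw counts of each library. The submitters' processing notes name STAR 2.7.10b, HTSeq 2.0.1 and DESeq2. The annotation, strand setting and mode of the counting are not given in the sources used here, and reads with several places were set aside, so that genes with near-identical copies are undercounted and members with overlapping genes are uncertain.

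The test was that of edgeR 4.0.16 under R 4.3.3 (filterByExpr with a count minimum of 10, TMM, robust quasi-likelihood fit on condition, prior count 0.125, Benjamini-Hochberg adjustment over 15298 genes). The biological coefficient of variation was 3.83%. The family scaling used the median ratio of members with a mean of at least 100 counts. Libraries of a group differed by more than their counts' sampling error (chi-square over genes 1.62 to 4.63 per gene). DESeq2 1.42.0, other scalings, filters and thresholds, the replicate block and leaving out each library were alternatives. Paralog ratios were tested by exact permutation (scipy 1.17.1). The fits were tested on simulated data.

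Same-numbered libraries deviated together over the 11065 genes averaging 100 counts or more, with correlations of 0.40, 0.14 and 0.33 for the 3 numbers. This met the rule set for paired numbers, so values with the number as a block are given where they change the call of a named gene. The main fit and the permutation tests are unpaired. Over all 15298 tested genes the correlations were 0.13, 0.018 and 0.071. Members, gene lists and alternatives were chosen with earlier results of these data known. Genes were named by rule, which took the paralogs and parents, the stalk, genes with other roles, the 6 highest and 6 lowest log2 fold changes from 100 mean normalized counts upward, the 6 farthest on each side of the family, the 3 most counted, and the 3 of smallest p per list. Lengths and overlaps are from GENCODE 44. The values of 1 member are not reported singly here.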

Additional observations from a re-analysis of the deposited data

How the results depend on the processing

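The direction and the call of named members mostly held: of 434 values of single genes under an alternative 400 stayed on their side of the threshold, 16 lost and 9 gained a call and 9 turned sign, and of 121 values against the family 95 held and 26 lost their call. Leaving out each library in turn gave 71 to 75 lower members, 0 higher members and 0 past the fold change threshold, a median log2 fold change of -0.27 to -0.25, 4 to 8 members below and 4 to 12 above the family, and 14 to 15 TOP mRNAs, 41 to 44 assembly factors, 10 to 13 RNA polymerase I genes, 6 to 7 regulators and 53 to 58 mitochondrial genes lower. The median log2 fold change of members was -0.20 with upper quartile scaling, -0.13 with library totals, 0.0058 with the family scaling, -0.28 when unfiltered, -0.24 where each library had to reach 10 counts, -0.23 where the mean had to reach 50 and -0.28 with DESeq2. Library totals gave 45 lower members and 1 higher, and the family scaling, which sets the median member near no change, gave 5 and 6. Fitting without a filter gave 1 higher, RPL3L, which also passed the fold change threshold (1 member). With the replicate block, for the pairing of numbers, 76 members were lower, 16 were below and 16 above the family. Of all 15298 tested genes 5100 were lower and 5357 higher on the TMM scale with that block. At an adjusted p under 0.01, 3 were below it.

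Under the family scaling the lower and higher genes were 2 and 2 of the TOP mRNAs, 16 and 7 of the assembly factors, 4 and 2 of the RNA polymerase I genes, 1 and 7 of the regulators and 9 and 23 of the mitochondrial genes. Beside these, 5.77% of all tested genes were lower and 59.7% higher on that scale. With library totals 1 assembly factor and 1 RNA polymerase I gene were higher, 2 regulators were lower and 1 higher, and 35 mitochondrial genes were lower and 4 higher. The family share of counts differed by -0.648 percentage points between the groups, and by -0.924 with the 100 most abundant other genes out of the total. Single genes turned sign with library totals, to 0.0081 for RPL22, 0.049 for RPL26L1 and 0.012 for RPL39L. RPL36AL, close to 0 throughout, turned to -0.0079 with DESeq2 size factors, -0.016 without a filter and -0.019 with DESeq2, and ran from -0.022 to 0.038 when libraries were left out. The difference in the log2 ratio of RPL22L1 to RPL22 ran from -0.13 to 0.032, the latter without VPA-treated replicate 3. The ratios ran from -0.40 to -0.22 for RPS27L, -0.082 to -0.034 for RPL7L1 and 0.0070 to 0.13 for RPL26L1. The cause of these changes was not tested. RPL17, RPS10 and RPL3L have few counts and wide errors at this depth.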
